A study of Mus musculus with 18 samples.

Results

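Stromal, endothelial and collagen transcripts were followed in dendritic cells sorted from the mouse colon. The set holds 35 genes, found by gene symbol in the array annotation. Each of the 35 had 1 probe set with a single symbol, out of 19937 genes with such a probe set. Of the 35 members, 33 passed the filter on low values and were tested among 14003 genes. The endothelial genes Tek and Esam did not pass.

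RNA came from colon lamina propria of 8-week-old BALB/c mice, either untreated or exposed to DSS (dextran sulfate sodium, at 2%), which damages the gut lining and is used to model colitis. Cells were freed with collagenase, gated as MHC+CD11chigh and sorted by CD103 and CD11b into single-positive CD103+CD11b-, double-positive CD103+CD11b+ and single-positive CD103-CD11b+ populations. The 18 Affymetrix arrays form 6 groups of 3: untreated CD103+CD11b-, untreated CD103+CD11b+, untreated CD103-CD11b+, and the same 3 subsets after DSS. Experiments 1 to 3 were untreated and experiments 4 to 6 received DSS, each with 1 array of every subset. No experiment held both conditions, so experiment and DSS cannot be told apart. All groups share strain, age, gate and tissue; the labels name no allele or transgene. The number of mice behind an array and the length of DSS treatment are not given in the sources used here. The p-values therefore measure the spread between these arrays, which may be technical.

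Fibroblasts, smooth muscle cells and pericytes build the connective tissue of the colon wall. Fibrillar collagens form its cables, basement membrane collagens underlie epithelium and vessels, and glycoproteins and proteoglycans such as fibronectin, decorin and lumican link the fibres to each other and to cells. Endothelial cells line blood and lymph vessels and carry junction proteins and growth factor receptors. Several of these genes are not limited to stroma: PECAM1 (CD31) is also found on leukocytes, endoglin and podoplanin on macrophages, and fibronectin is made by macrophages. In sorted bulk samples, fewer cells of a type and less RNA per cell cannot be told apart.

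Eng and Pdpn are the members that follow the subsets and that the RefSeq promoter table holds, so the 250 bases before their start sites are shown in build GRCm38.p6. Eng lies at chr2:32646345-32646594 on the plus strand and Pdpn at chr4:143299565-143299814 on the minus strand. Capitals mark the letters GAGGAAGT, a site type of the myeloid factor PU.1, searched on both strands.
Eng: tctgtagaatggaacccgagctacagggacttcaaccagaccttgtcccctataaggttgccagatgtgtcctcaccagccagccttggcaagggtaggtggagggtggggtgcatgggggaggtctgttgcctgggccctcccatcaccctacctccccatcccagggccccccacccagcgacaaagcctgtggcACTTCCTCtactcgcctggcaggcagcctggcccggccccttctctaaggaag
Pdpn: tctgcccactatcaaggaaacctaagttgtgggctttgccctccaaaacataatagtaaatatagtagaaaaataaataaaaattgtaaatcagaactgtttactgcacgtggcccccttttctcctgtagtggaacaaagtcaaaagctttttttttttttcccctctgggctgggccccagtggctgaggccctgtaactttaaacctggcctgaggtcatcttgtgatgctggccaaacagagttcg

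The Eng window holds the letters once, on the opposite strand, 53 to 46 bases before the start. They occur in 2.44% of all 32851 windows of this length and in 1 of the 22 members that the table holds. A match in letters is a description and not a measured site, and the Pdpn window does not hold them.

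All values are log2 expression as deposited, from robust multi-array averaging (RMA), and a difference of 1 is a doubling. Array medians lay between 3.99 and 4.09. The filter level was 3.51, required in at least 3 of the 18 arrays. All 14 genes on a list of dendritic cell markers were tested and lay above that level in at least 17 arrays, among them Itgax, Flt3 and Zbtb46. A member was called at an adjusted p under 0.05 in limma, with Benjamini-Hochberg adjustment over all 14003 genes. Errors of differences are limma's standard errors (SE).

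In untreated mice, 3 members separated CD103+CD11b- from CD103-CD11b+ cells, and all were lower in CD103+CD11b- cells. They were Pecam1, an adhesion receptor at endothelial junctions, Eng (endoglin), a coreceptor for transforming growth factor beta, and Pdpn (podoplanin), a mucin-type glycoprotein of lymphatic endothelium and fibroblastic cells. Among all genes tested 10.3% were called in this comparison. The 33 members had a median difference of -0.05 against 0.01 over all genes. None of the collagens, contractile genes or other endothelial members was called.

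Pecam1 read 5.84, 5.62 and 5.77 in the untreated CD103+CD11b- arrays of experiments 1, 2 and 3. It read 7.24, 7.22 and 7.05 in untreated CD103+CD11b+ arrays and 7.14, 7.36 and 7.26 in untreated CD103-CD11b+ arrays. The CD103+CD11b- arrays stood below all others, and the CD11b+ subsets overlapped each other. The difference between CD103+CD11b- and CD103-CD11b+ cells was -1.51 ± 0.15 (SE, n = 3 each), 2.85-fold, with limma's adjusted p = 1.0e-06. Against CD103+CD11b+ cells it was -1.43 ± 0.15 (adjusted p = 3.4e-06 in limma). Between both CD11b+ subsets the difference was -0.08, with a 95% interval from -0.40 to 0.24.

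After DSS the same order held for Pecam1 with a smaller gap. Its values were 5.97, 6.55 and 5.94 in CD103+CD11b- arrays of experiments 4, 5 and 6, then 7.04, 7.08 and 6.80 in CD103+CD11b+ arrays and 7.15, 7.0 and 6.84 in CD103-CD11b+ arrays. The CD103+CD11b- array of experiment 5 was the highest of its group and still lay below every CD11b+ array. The differences were -0.84 ± 0.15 against CD103-CD11b+ cells (adjusted p = 0.00095 in limma) and -0.82 ± 0.15 against CD103+CD11b+ cells (adjusted p = 0.0017). Whether the gap itself changed with DSS was tested as an interaction: the change after DSS in CD103+CD11b- cells exceeded that in CD103-CD11b+ cells by 0.67 ± 0.22 and that in CD103+CD11b+ cells by 0.61 ± 0.22, and neither was called (limma adjusted p = 1.00 and 0.98).

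Eng rose in steps across the subsets. In untreated mice it read 5.82, 6.0 and 5.75 in CD103+CD11b- cells, 6.99, 6.50 and 6.18 in CD103+CD11b+ cells and 7.14, 7.29 and 7.52 in CD103-CD11b+ cells. No groups overlapped, and the middle group was the most spread, at 6.55 ± 0.41 (SD, n = 3). CD103+CD11b- cells were lower than CD103-CD11b+ cells by a difference of -1.46 ± 0.17, 2.76-fold (adjusted p = 4.5e-06 in limma). The lower step was -0.70 ± 0.17 (adjusted p = 0.013), and the upper step -0.76 ± 0.17 (adjusted p = 0.013), the latter being CD103+CD11b+ minus CD103-CD11b+ cells.

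Both untreated steps of Eng rested on single arrays. The lower step was not called without the CD103+CD11b+ array of experiment 1 (adjusted p = 0.086) or the CD103+CD11b- array of experiment 3 (0.063). The upper step was not called without the CD103+CD11b+ array of experiment 2 (adjusted p = 0.052) or 3 (0.061), or the CD103-CD11b+ array of experiment 3 (0.060). Fitting only the compared groups also ended both calls.

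In DSS mice Eng read 5.76, 5.91 and 5.74 in CD103+CD11b- cells, 6.24, 6.53 and 6.38 in CD103+CD11b+ cells and 7.14, 7.36 and 7.30 in CD103-CD11b+ cells. These groups did not overlap either, and the order of the subsets was the untreated one in each of the 3 experiments. The whole span was -1.46 ± 0.17 (adjusted p = 6.3e-06 in limma). The upper step was -0.89 ± 0.17 (adjusted p = 0.0084, and 0.055 without the CD103+CD11b+ array of experiment 4). The lower step was -0.58 ± 0.17 (adjusted p = 0.049), and it missed the threshold when any 1 of its 6 arrays was left out, with adjusted p up to 0.19. With the experiment as a block its adjusted p was 0.057.

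Pdpn was set apart in CD103-CD11b+ cells. Untreated values were 7.67, 7.93 and 8.06 in CD103+CD11b- cells, 8.40, 8.07 and 8.11 in CD103+CD11b+ cells and 8.96, 9.54 and 9.11 in CD103-CD11b+ cells. The CD103-CD11b+ arrays were above all others, while CD103+CD11b- and CD103+CD11b+ arrays lay close, with a difference of -0.30 (95% interval from -0.67 to 0.06). CD103+CD11b- cells differed from CD103-CD11b+ cells by -1.32 ± 0.17, 2.49-fold (adjusted p = 2.5e-05 in limma), and CD103+CD11b+ cells by -1.01 ± 0.17 (adjusted p = 0.0019).

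After DSS, Pdpn read 8.17, 8.21 and 7.98 in CD103+CD11b- cells, 8.31, 8.59 and 7.95 in CD103+CD11b+ cells and 9.10, 8.88 and 8.94 in CD103-CD11b+ cells. The last group again lay above both others. CD103+CD11b- cells differed from it by -0.86 ± 0.17 (adjusted p = 0.0027 in limma). This call ended in the blocked fit without experiment 4 (adjusted p = 0.057). The CD103+CD11b+ difference of -0.69 ± 0.17 was not called (adjusted p = 0.053), and passed with the experiment as a block (adjusted p = 0.0496). Without the CD103+CD11b+ array of experiment 5 it was -0.84 and was called (adjusted p = 0.035).

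**Figure D1:**
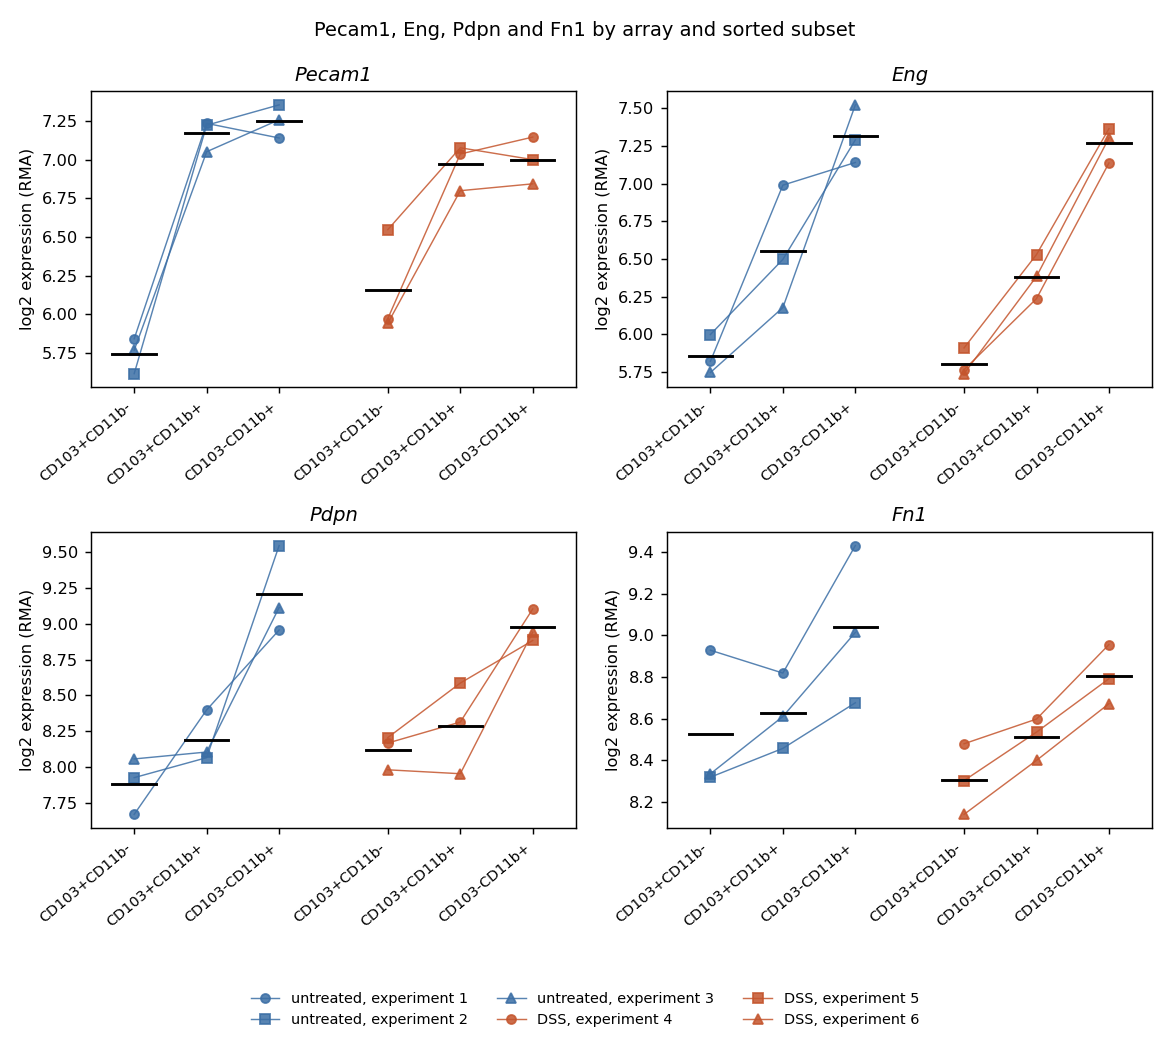
Log2 expression (vertical axis) of Pecam1, Eng, Pdpn and Fn1 in each of the 18 arrays, by sorted subset (horizontal axis), untreated in blue and DSS in orange; lines join the 3 arrays of an experiment and black bars are group means. Pecam1 is low in CD103+CD11b- arrays only, Eng climbs over the 3 subsets, Pdpn is high in CD103-CD11b+ arrays, and for Fn1 whole experiments are shifted up or down.

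The subset comparisons share groups and so are not independent, and each called few members. Untreated CD103+CD11b- against CD103+CD11b+ cells called 2 of 33 members (Pecam1 and Eng) where 6.86% of all genes were called. Untreated CD103+CD11b+ against CD103-CD11b+ cells called 2 (Pdpn and Eng) where 4.11% of all genes were called. After DSS, CD103+CD11b- against CD103-CD11b+ cells called 3 members against a background of 8.53%, CD103+CD11b- against CD103+CD11b+ cells 2 against 5.96%, and CD103+CD11b+ against CD103-CD11b+ cells 1 against 1.58%. Every call had the subset named first lower. The members as a list were thus called about as often as other genes, and the calls fell on 3 names. Called or not, most members leaned lower in CD103+CD11b- cells. Against CD103+CD11b+ cells, 29 of 33 were negative untreated (median -0.24, all genes -0.06) and 27 after DSS (-0.13, all genes 0.002). Against CD103-CD11b+ cells, 21 were negative untreated and 27 after DSS (-0.15, all genes -0.01). Between the CD11b+ subsets, 8 were negative untreated and 20 after DSS. Members shared array shifts, so these counts carry no test.

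Fn1, which encodes the adhesive glycoprotein fibronectin, differed between subsets within experiments. It read 8.93, 8.32 and 8.34 in untreated CD103+CD11b- arrays of experiments 1, 2 and 3, then 8.82, 8.46 and 8.61 in CD103+CD11b+ arrays and 9.43, 8.68 and 9.01 in CD103-CD11b+ arrays. The groups overlapped because all 3 arrays of experiment 1 were high. After DSS it read 8.48, 8.30 and 8.14, then 8.60, 8.54 and 8.40, then 8.96, 8.79 and 8.67 in the same order of subsets. CD103-CD11b+ cells exceeded CD103+CD11b- cells in 6 of 6 experiments.

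The Fn1 difference, CD103+CD11b- minus CD103-CD11b+, was -0.51 in untreated cells and -0.50 after DSS. Group means alone did not call it (adjusted p = 0.10 and 0.13 in limma), although the untreated difference passed without the CD103+CD11b- array of experiment 1 (-0.71, adjusted p = 0.022) or the CD103-CD11b+ array of experiment 2 (-0.69, adjusted p = 0.028). With the experiment as a block it was called in both, at adjusted p = 0.011 and 0.014, and the standard error fell from 0.19 to 0.12. The block gave 4 called members in each of these comparisons, where 11% and 9.6% of all genes were called. Leaving out experiment 1 or 3 from the blocked untreated fit ended the Fn1 call (adjusted p = 0.0503 and 0.099), as did leaving out any 1 DSS experiment (0.099 to 0.14). In the other blocked comparisons whose member calls changed, 1 member (Pecam1) was called between CD103+CD11b- and CD103+CD11b+ cells after DSS, with 6.78% of all genes, and 2 (Pdpn and Eng) between CD103+CD11b+ and CD103-CD11b+ cells after DSS, with 2.18%.

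Macrophage markers had their highest group mean in CD103-CD11b+ cells in both conditions, as had Eng, Pdpn and Fn1. The mean log2 level of 13 macrophage genes ranged from 6.49 to 6.66 in untreated CD103+CD11b- arrays, 7.10 to 7.29 in CD103+CD11b+ arrays and 7.93 to 8.55 in CD103-CD11b+ arrays. After DSS the ranges were 6.87 to 6.98, 7.12 to 7.21 and 7.87 to 8.16. Between CD103+CD11b- and CD103-CD11b+ cells 10 of 13 were called lower in untreated mice, where 10.3% of all genes were called. After DSS 9 of 13 were called lower, against 8.53% of all genes. Csf1r, C1qa and Fcgr1 were among them in both conditions. The upper step, CD103+CD11b+ against CD103-CD11b+ cells, called 9 of 13 macrophage genes lower untreated and 8 after DSS. It called 4.11% and 1.58% of all genes. Without the block, this step called Eng in both conditions and Pdpn in untreated mice only, but neither Fn1 nor Pecam1. Other parts of the patterns differed. The untreated lower step called 6 of 13 macrophage genes, where 6.86% of all genes were called. It also called Pecam1 and Eng (-0.70), but neither Pdpn (-0.30) nor Fn1 (-0.10). In CD103+CD11b- cells the macrophage mean was 6.60 untreated and 6.91 after DSS. Pdpn (7.89 and 8.12) and Pecam1 (5.74 and 6.15) were also higher after DSS, whereas Eng (5.85 and 5.80) and Fn1 (8.53 and 8.31) were not. Each of the 13 macrophage genes lay above the filter level in at least 9 arrays. Their part in the differences of Pecam1, Eng, Pdpn and Fn1 was not tested.

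None of the other endothelial members was called between subsets in the fit of group means. Cdh5, the cadherin of endothelial junctions, read 4.75, 4.47 and 4.87 in untreated CD103+CD11b- arrays, 4.36, 4.72 and 6.04 in CD103+CD11b+ arrays and 5.37, 5.25 and 5.05 in CD103-CD11b+ arrays. After DSS it read 4.77, 4.90 and 4.77, then 4.92, 5.44 and 5.13, then 5.31, 5.66 and 5.12. Its group means stepped up over the subsets in the same order as those of Eng, but the untreated CD103+CD11b+ mean was raised by the single array at 6.04. In experiment 1 the CD103+CD11b+ array (4.36) lay below the CD103+CD11b- array (4.75). CD103+CD11b- arrays lay below CD103-CD11b+ arrays in 6 of 6 experiments, without overlap in either condition. These 2 groups did not overlap for 5 of 33 members untreated and 10 of 33 after DSS, Cdh5 among them. The share of all genes was not counted. The untreated Cdh5 difference between CD103+CD11b- and CD103-CD11b+ cells was -0.53 ± 0.29 and its DSS difference -0.55 ± 0.29 (limma adjusted p = 0.33 in each). The untreated one was called in the blocked fit without experiment 3, at -0.70 (adjusted p = 0.028). The lowest and highest of its 18 values were both untreated CD103+CD11b+ arrays. Kdr, a receptor for vascular endothelial growth factor, lay between 3.10 and 3.83 and was above the filter level in 10 of 18 arrays. Vwf, the clotting glycoprotein of endothelial granules, lay between 4.15 and 4.84, and Cldn5, a tight junction claudin, between 4.09 and 4.86. Tek, the angiopoietin receptor, ranged from 2.60 to 3.51 with 1 array above the filter level, and Esam, an endothelial adhesion molecule, from 3.09 to 3.70 with 2 arrays above it.

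A wider list of endothelial genes held 21 tested genes besides the members. Between CD103+CD11b- and CD103-CD11b+ cells of untreated mice, where 10.3% of all genes were called, 1 of them was lower and 0 higher. It was Cd93, a receptor of endothelium and myeloid cells, at -1.72 ± 0.23 (adjusted p = 2.4e-05 in limma). After DSS, where 8.53% of all genes were called, 2 of the 21 were lower in that comparison. They were Cd93 at -0.90 ± 0.23 (adjusted p = 0.015 in limma) and the growth factor receptor Flt1 at -0.88 ± 0.22 (0.013). The list's median difference was -0.13 untreated and -0.06 after DSS. In the steps between neighbouring subsets the calls were Cd93 (-0.82 and -0.90) and Plvap (-0.50) in untreated mice and Icam2 (-1.07) after DSS, each with the subset named first lower. The lower and upper steps called 6.86% and 4.11% of all genes in untreated mice and 5.96% and 1.58% after DSS. No gene was called in the test of whether these differences changed with DSS. Endothelial genes such as Tie1, Egfl7, Robo4, Erg and Emcn were not called in either condition. Sox17 and Clec14a were above the filter level in 0 of 18 arrays.

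**Figure D2:**
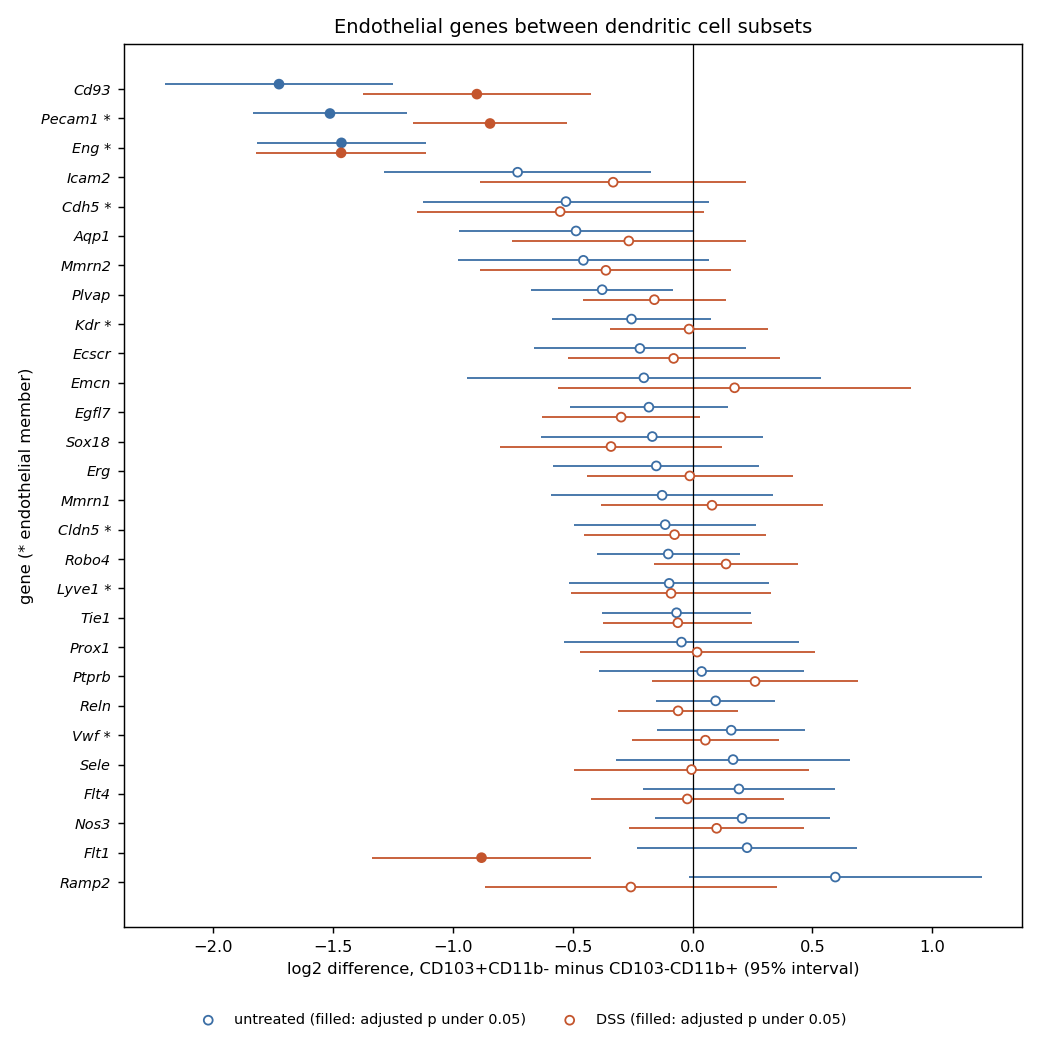
Log2 difference, CD103+CD11b- minus CD103-CD11b+ (horizontal axis), with its 95% interval, for the 7 tested endothelial members (asterisks) and the 21 other tested endothelial genes, untreated in blue and DSS in orange; filled points have an adjusted p under 0.05. Cd93, Pecam1 and Eng stand to the left in both conditions, and Flt1 after DSS; most other genes have intervals that include 0.

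No fibrillar collagen was called between subsets. Col1a1 and Col1a2, the chains of type I collagen, ranged from 5.86 to 6.43 and from 5.89 to 6.86 over the 18 arrays. Col3a1, the chain of type III collagen, read 6.45, 5.62 and 6.14 in untreated CD103+CD11b- cells, 6.74, 6.38 and 6.29 in CD103+CD11b+ cells and 6.52, 6.18 and 6.04 in CD103-CD11b+ cells. Experiment 1 gave the highest value in each of these 3 groups, and the groups overlapped. Col3a1 was nonetheless lower in CD103+CD11b- than CD103+CD11b+ arrays in 3 of 3 untreated experiments; the difference of -0.40 had a 95% interval from -0.70 to -0.10 with the experiment as a block, and was not called (adjusted p = 0.10 in limma). Col5a1, a chain of fibril-nucleating type V collagen, ranged from 4.76 to 5.41. Over the 6 subset comparisons the 4 fibrillar genes differed by -0.40 to 0.23, with 95% intervals between -0.78 and 0.62 and 0 calls (smallest limma adjusted p = 0.23).

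The collagens of basement membranes and beaded microfibrils gave 0 calls too. Col4a1 and Col4a2, the main chains of basement membrane collagen, ranged from 4.48 to 5.24 and from 4.26 to 5.26. Col6a1 and Col6a2, chains of microfibrillar collagen VI, ranged from 5.55 to 6.57 and from 5.54 to 6.07. Their subset differences lay between -0.27 and 0.31, with 95% intervals between -0.67 and 0.71.

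Among matrix glycoproteins and proteoglycans, Sparc, a collagen-binding protein, ranged from 8.74 to 9.89. Its highest values were the 3 arrays of experiment 1 (9.74, 9.85 and 9.89), and its lowest was the CD103+CD11b- array of experiment 2. The leucine-rich proteoglycans Dcn, Lum and Bgn, which bind collagen fibrils, ranged from 9.38 to 10.31, 7.46 to 8.62 and 8.23 to 9.25. The elastic fibre proteins Fbln1 and Fbln2 ranged from 6.18 to 7.50 and 5.29 to 6.36, the matricellular protein Postn from 7.84 to 8.76 and Igfbp7, a binding protein for insulin-like growth factors, from 8.65 to 9.44. Across the 10 genes of this role the subset differences lay between -0.51 and 0.38 with 0 calls without the block. The lowest difference was that of Fn1.

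Of the mesenchymal growth factor receptors, Pdgfra ranged from 5.16 to 6.08 and Pdgfrb from 4.15 to 5.13, with 0 calls. The contractile genes of smooth muscle gave 0 calls. Acta2 (smooth muscle actin) had the largest spread within groups of the 33 members (pooled SD 0.51). It read 5.69, 4.46 and 4.44 in untreated CD103+CD11b- arrays and 4.85, 6.11 and 4.65 in DSS CD103+CD11b+ arrays, so that arrays of 1 group spread by more than 1 log2 unit. Tagln (transgelin) ranged from 4.52 to 5.50, Myh11 (smooth muscle myosin) from 4.11 to 5.44, Des (desmin) from 2.95 to 4.54 and Cnn1 (calponin) from 3.41 to 4.37. Des was above the filter level in 12 arrays and Cnn1 in 15. The lowest subset difference of the 5 genes was -0.75 for Acta2, untreated CD103+CD11b- minus CD103+CD11b+, with a 95% interval from -1.48 to -0.03 and an adjusted p of 0.25 in limma. Without the CD103+CD11b- array of experiment 1 it was -1.17 and was called (adjusted p = 0.046).

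**Figure D3:**
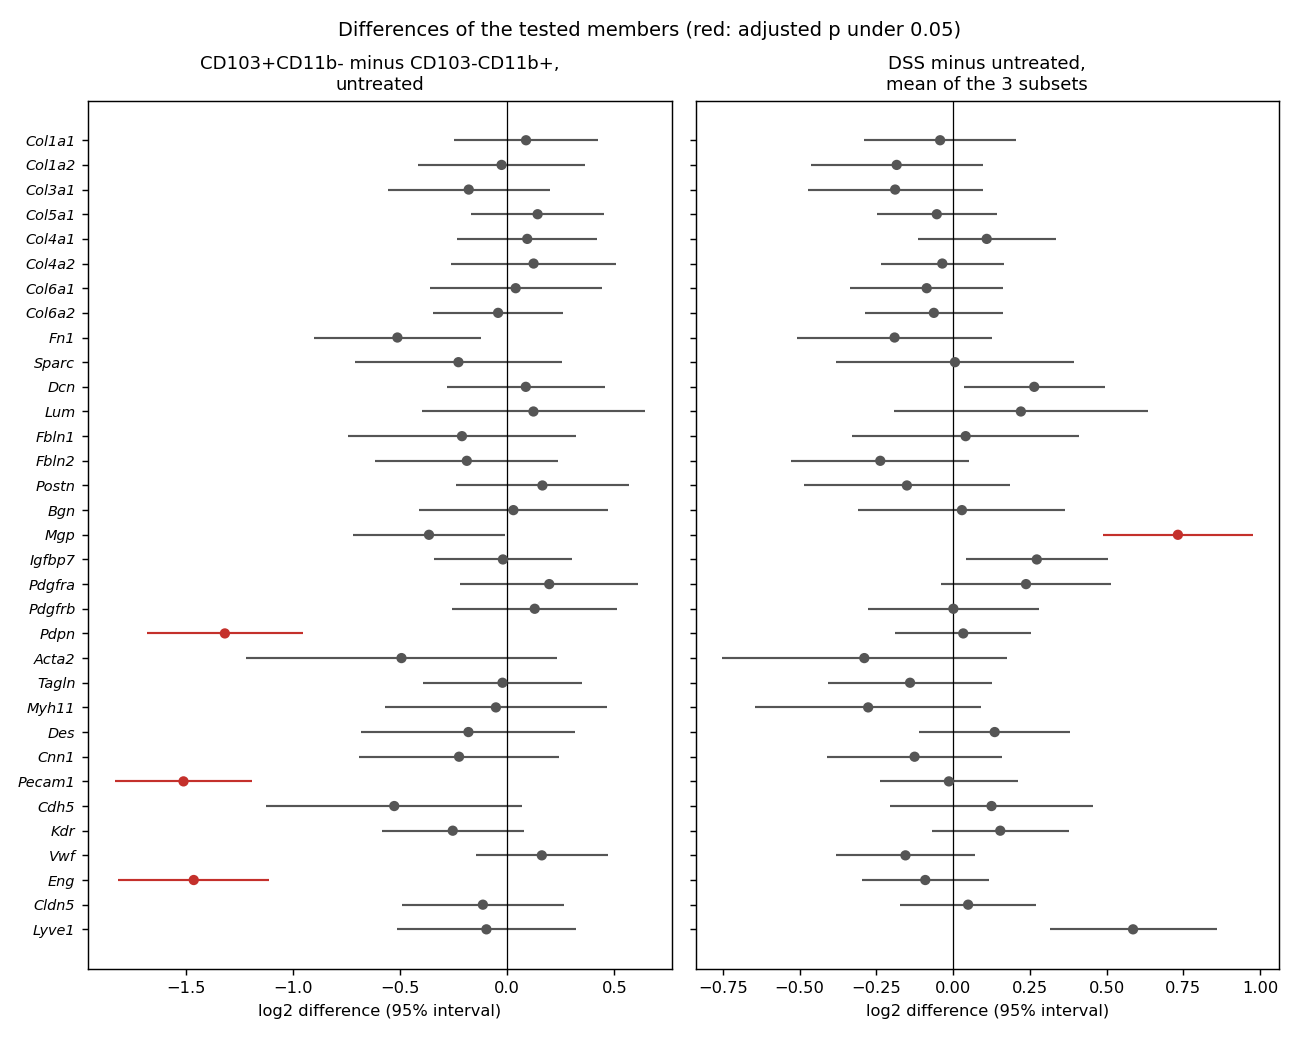
Log2 difference (horizontal axes, points) with 95% interval (lines) of the 33 tested members, for untreated CD103+CD11b- minus CD103-CD11b+ cells (left) and DSS minus untreated over all subsets (right); red marks an adjusted p under 0.05. Pdpn, Pecam1 and Eng are red on the left and Mgp on the right, and all 8 collagens lie near 0 in both.

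Wider lists around these roles were sparse in calls as well. A fibroblast list had 0 of 18 tested genes called in any of the 13 comparisons, with medians of -0.12 to 0.10 in the 10 comparisons of 2 conditions or subsets. A smooth muscle and pericyte list had 1 call of 17, the myosin kinase Mylk at -0.75 (CD103+CD11b- against CD103+CD11b+ cells after DSS, limma adjusted p = 0.015). That comparison called 5.96% of all genes. Only 2 of the 5 enteric glia genes with a probe set, Sox10 and Ngfr, were tested, with 0 calls.

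Genes that process matrix were called no more often than other genes between CD103+CD11b- and CD103-CD11b+ cells. Of 41 tested genes for matrix and collagen processing, where 10.3% of all genes were called, 3 were lower and 0 higher when CD103+CD11b- cells of untreated mice were set against CD103-CD11b+ cells: Ecm1 (-1.48), the adhesive glycoprotein Thbs1 (-0.92) and the lysyl hydroxylase Plod3 (-0.40). After DSS, where 8.53% of all genes were called, the 3 lower genes were Thbs1 (-1.15), Ecm1 (-0.84) and the proteoglycan Vcan (-0.58). Tgfbi, an integrin-binding matrix protein, was low in the CD103+CD11b+ subset on both sides: it was 1.63 higher in untreated CD103+CD11b- cells than in these cells and differed by -1.94 between CD103+CD11b+ and CD103-CD11b+ cells. After DSS these values were 1.33 and -1.55. Other calls were Ecm1 (-0.93) and Plod3 (-0.56) in the untreated CD103+CD11b+ against CD103-CD11b+ comparison, Thbs1 (-0.84) between the same subsets after DSS, and Loxl1 (-0.52) and P4hb (0.47) between CD103+CD11b- and CD103+CD11b+ cells after DSS.

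Of 21 tested matrix receptors, 4 were higher and 7 lower for CD103+CD11b- against CD103-CD11b+ cells without DSS, where 10.3% of all genes were called. The higher genes were the collagen-binding integrin chain Itga1 (2.14), the scavenger receptor Cd36 (1.26), Itgb1 (0.64) and Itga4 (0.46). The 4 largest of the lower genes were the mannose receptor Mrc1 (-2.59), which takes up collagen fragments, Itga9 (-2.47), Itgb5 (-1.64) and the collagen-binding inhibitory receptor Lair1 (-1.62). After DSS, against 8.53% of all genes, 2 were higher (Itga1 at 1.56 and Itgb1 at 0.68) and 5 lower, led by Itga9 at -1.79, Mrc1 at -1.69, Sdc1 at -1.46 and Lair1 at -1.24. Itga1 also separated CD103+CD11b- from CD103+CD11b+ cells, by 2.57 untreated and 1.68 after DSS. The 4 fibrillar and 4 other collagen members gave 0 calls in the same comparisons, but so few genes cannot be set against these shares.

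After DSS, Mgp was the 1 member called. Mgp encodes matrix Gla protein, a secreted inhibitor of calcification made by smooth muscle cells, fibroblasts and endothelium. It read 7.35, 6.69 and 7.09 in untreated CD103+CD11b- cells, 7.50, 7.15 and 7.71 in CD103+CD11b+ cells and 7.52, 7.42 and 7.29 in CD103-CD11b+ cells. The DSS values were 8.05, 7.94 and 7.84, then 7.91, 8.27 and 7.93, then 8.26, 8.07 and 8.06. All 9 DSS arrays lay above all 9 untreated arrays.

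In CD103+CD11b- cells Mgp was higher after DSS by 0.90 ± 0.17, 1.86-fold (adjusted p = 0.041 in limma), in a comparison that called 0.129% of all genes. In CD103+CD11b+ cells the difference was 0.58 ± 0.17 (adjusted p = 0.27), with 0 members and 0.0857% of all genes called. In CD103-CD11b+ cells it was 0.72 ± 0.17 (adjusted p = 0.14), with 0 members and 0.1% of all genes called. At an unadjusted p under 0.05 the members numbered 3, 2 and 3 of 33 in the 3 subsets, and all genes 852, 1410 and 1074 of 14003, so the members' shares were near the background.

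Over the mean of the 3 subsets, with 1 value per experiment, Mgp rose from 7.46, 7.09 and 7.36 in experiments 1, 2 and 3 to 8.07, 8.09 and 7.94 in experiments 4, 5 and 6. The difference was 0.73 ± 0.11, 1.66-fold (adjusted p = 0.037 in limma, n = 3 each), where 0.186% of all genes were called. Leaving out any 1 experiment ended this call, with adjusted p between 0.066 and 0.15. In CD103+CD11b- cells alone, the call ended without the untreated array of experiment 2 (adjusted p = 0.21) or 3 (0.12), or without any 1 DSS array (0.11 to 0.20). A further quantile normalization gave 0.059 in CD103+CD11b- cells and 0.056 over the subsets. The difference kept its sign in each of these fits.

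Lyve1, a hyaluronan receptor of lymphatic endothelium and some macrophages, separated the conditions by experiment without being called. Its means over the subsets were 5.74, 5.55 and 5.76 in experiments 1, 2 and 3 and 6.06, 6.24 and 6.51 in experiments 4, 5 and 6. By array it read 5.48, 5.79 and 5.46, then 6.06, 5.50 and 5.84, then 5.70, 5.35 and 5.97 in the untreated subsets. After DSS it read 5.80, 6.25 and 6.63, then 6.13, 6.21 and 6.46, then 6.25, 6.25 and 6.45. The DSS arrays lay above the untreated ones of the same subset, and single arrays of different subsets overlapped. The difference was 0.59 ± 0.12 (adjusted p = 0.13 in limma).

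Dcn was the third member whose experiment means did not overlap, at 9.75 to 9.86 untreated and 9.87 to 10.20 after DSS, a difference of 0.26 ± 0.10 (adjusted p = 0.41). Such separation was seen for 3 of 33 members and for 15.9% of all genes, so the members' share lies below the background. Igfbp7 differed by 0.27 ± 0.10 (adjusted p = 0.41), with overlapping means. The 8 collagens differed by -0.19 to 0.11 after DSS over the subsets, and the 95% intervals lay between -0.47 and 0.33. Pecam1, Eng and Pdpn differed by -0.01, -0.09 and 0.03 in the same comparison.

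**Figure D4:**
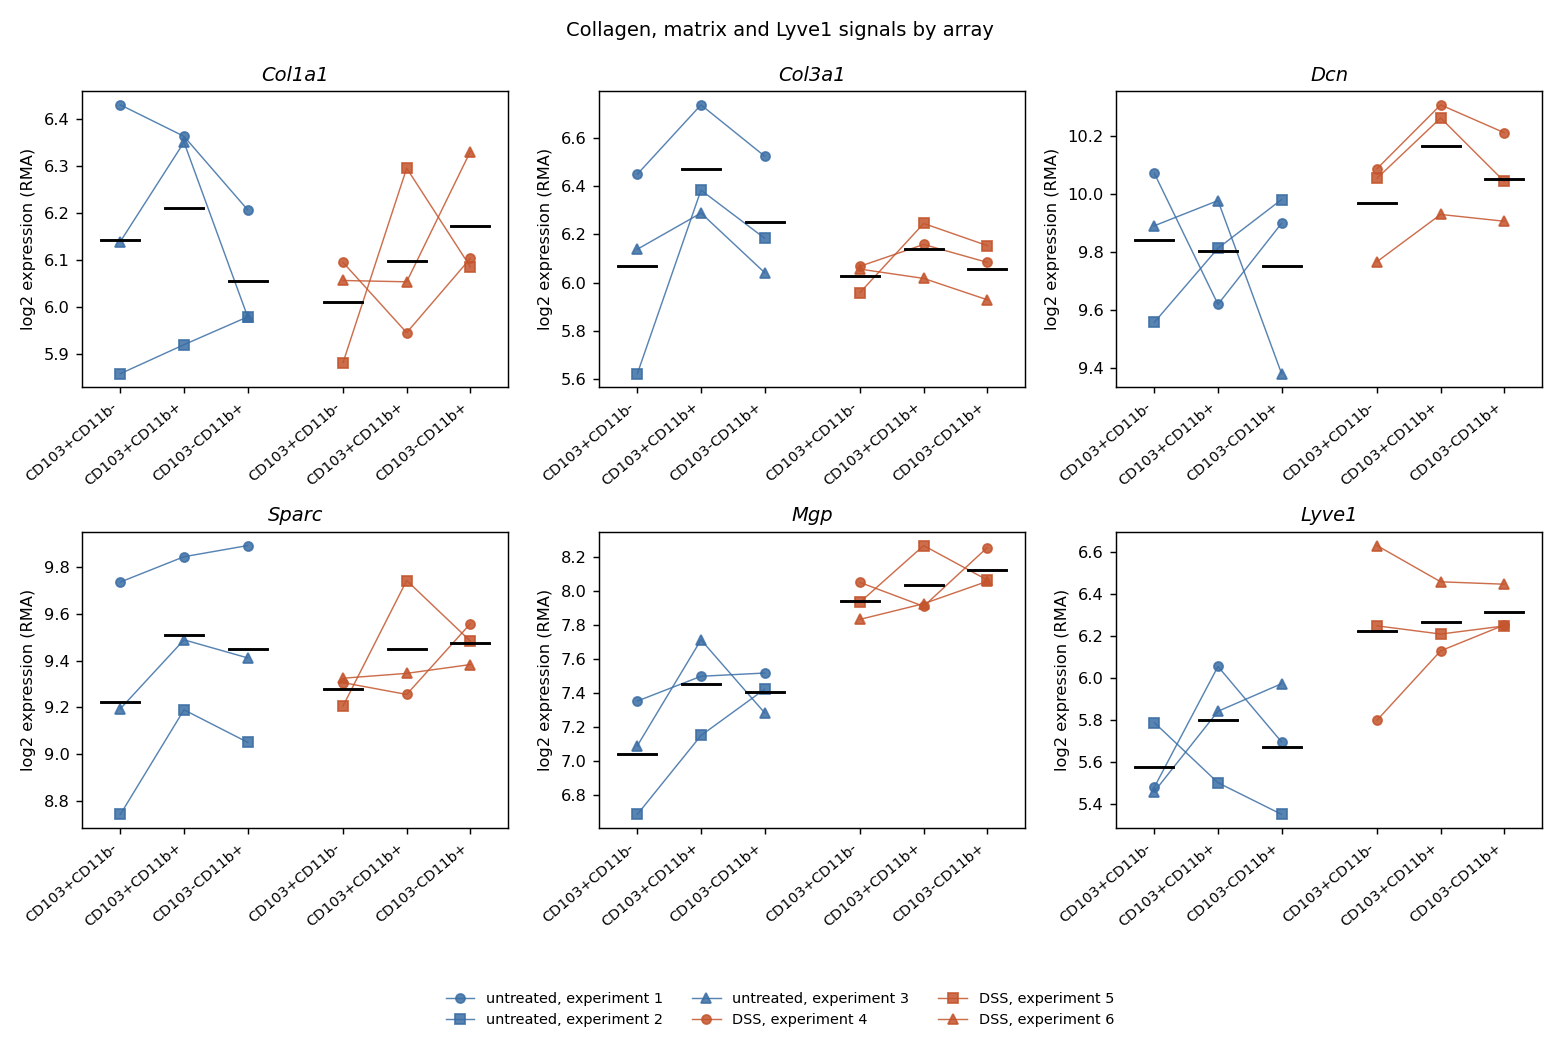
Log2 expression (vertical axis) of Col1a1, Col3a1, Dcn, Sparc, Mgp and Lyve1 in each of the 18 arrays by sorted subset (horizontal axis), untreated in blue and DSS in orange; lines join the arrays of an experiment and black bars are group means. Mgp lies higher in all 9 DSS arrays than in all 9 untreated arrays, while Col1a1, Col3a1 and Sparc overlap between conditions.

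Markers of other cells stood beside the Mgp difference as follows. The fibroblast list had a median difference of 0.06 over the subsets after DSS, and the smooth muscle and pericyte list 0.07. The endothelial list had 0.04, each with 0 calls. Epithelial markers, all 20 tested, had a median of -0.40 with 0 calls, and their mean level ranged from 7.47 to 8.24 in untreated arrays and from 7.19 to 7.82 in DSS arrays. Of 7 tested neutrophil markers 1 was called higher (Retnlg, 1.34 ± 0.18, adjusted p = 0.028 in limma) and the median was 0.78. Their mean level ranged from 3.84 to 4.26 untreated and from 4.15 to 5.22 after DSS. The 13 macrophage genes had a median of 0.33 in CD103+CD11b- cells, where Mgp was called, with 0 calls. Their mean level there ranged from 6.49 to 6.66 untreated and from 6.87 to 6.98 after DSS, without overlap. Neutrophil markers did not overlap in that subset either, at 3.84 to 3.88 untreated and 4.15 to 5.03 after DSS, with a median difference of 0.87. Dendritic cell markers and T, NK and innate lymphoid markers were also higher there without overlap, and B and plasma cell markers lower. Epithelial, fibroblast, smooth muscle and endothelial lists overlapped. In CD103+CD11b+ and CD103-CD11b+ cells the macrophage medians were 0.09 and -0.14, and the ranges overlapped. Neutrophil markers were higher without overlap in these subsets too (medians 0.72 and 0.81), and B and plasma cell markers lower. Epithelial markers were lower without overlap in CD103+CD11b+ cells, and dendritic cell markers higher in CD103-CD11b+ cells. The share of all genes that separated in single subsets was not counted. B and plasma cell markers had a median of -0.22 and T, NK and innate lymphoid markers -0.05, with 0 of 9 called in each. Of 14 dendritic cell genes, Sirpa was higher after DSS in CD103+CD11b- cells (0.83), and Itgae (1.08) and Clec9a (1.40) in CD103-CD11b+ cells. The part of these cells in the Mgp and Lyve1 differences was not tested.

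No member was called in the tests of whether the change after DSS differed between subsets, which does not show that the changes were alike. The 3 interaction comparisons called 0 of 33 members in limma, and 0% of all genes in CD103+CD11b- against CD103-CD11b+ cells, 0% in CD103+CD11b- against CD103+CD11b+ cells and 0% in CD103+CD11b+ against CD103-CD11b+ cells. At an unadjusted p under 0.05 each had 1 member and 510, 676 and 778 genes. The member was Pecam1 in both comparisons with CD103+CD11b- cells and Pdgfrb in the last, at -0.63 (adjusted p = 0.87). For Mgp the differences in change were 0.18, 0.32 and -0.14, with 95% intervals that all included 0.

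Single arrays carried a shift shared by many members, and in experiments 1, 2 and 6 all 3 arrays were shifted alike. The other experiments had smaller or less even shifts. The array's deviation from its group mean, averaged over the 33 members, was 0.17, 0.13 and 0.09 in experiment 1 for CD103+CD11b-, then CD103+CD11b+, then CD103-CD11b+ arrays. It was -0.12, -0.10 and -0.10 in experiment 2. In experiment 1, 26, 26 and 22 of 33 members lay above their group mean in the 3 arrays. Over all genes tested the mean deviation of these 6 arrays stayed between -0.01 and 0.02.

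In DSS mice experiment 6 was low in the same way, at -0.08, -0.16 and -0.15, with 9, 6 and 6 of 33 members above their group mean. The CD103+CD11b+ array of experiment 5 was the highest DSS array at 0.15, with 28 of 33 members above, and the other arrays of experiment 5 stood at 0.02 and 0.04. Experiment 4 stood at 0.06, 0.01 and 0.11. The fibroblast list, which shares no gene with the members, deviated by 0.18, 0.09 and 0.14 in experiment 1 and by -0.12, -0.20 and -0.13 in experiment 6. Epithelial markers did not run in parallel: their low untreated arrays were those of experiment 3 (-0.28, -0.29 and -0.23), where members deviated by -0.06, -0.03 and 0.01. The source of the shared shift was not tested.

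Members differed in how closely they followed it. After removal of group means, the correlation of a member with the mean of the other members over the 18 arrays was 0.81 for Bgn, 0.79 for Fn1, 0.77 for Sparc, 0.76 for Acta2 and 0.71 for Col3a1. It was 0.39 for Pecam1, 0.15 for Pdpn, 0.13 for Eng and -0.22 for Lyve1. These values describe arrays that share experiments, amplification and hybridization, and carry no test. Of the genes that separated the subsets, Fn1 lay at the high end of this range and Pecam1, Pdpn and Eng lay toward the low end.

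**Figure D5:**
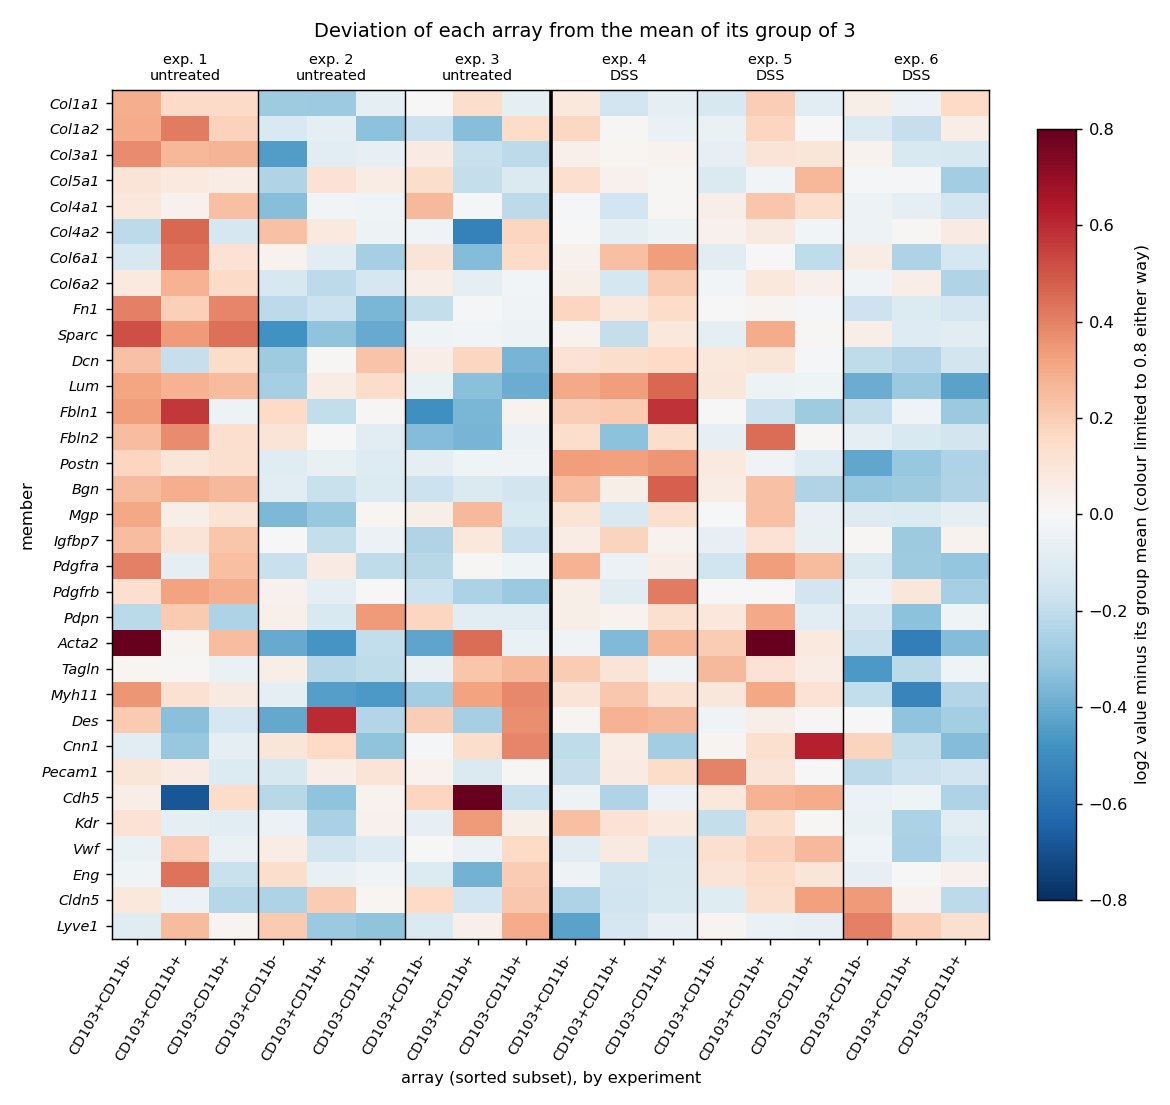
Deviation of each of the 33 tested members (rows) from its group mean, in log2 units (colour, limited to 0.8 in either direction), for the 18 arrays ordered by experiment (columns, 3 sorted subsets each). Most rows from Col1a1 to Pdgfra are red in the arrays of experiment 1 and many rows are blue in those of experiment 6; Acta2 and Cdh5 have single arrays beyond the colour limit.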

How the data were processed

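The authors deposited log2 values, 1 for each probe set on each of 18 arrays. The submitters' processing notes name RMA, which corrects background, normalizes by quantiles and summarizes probes. Its version is not given in the sources used here. Values were used as deposited. Of 34760 probe sets, 21640 carried 1 gene symbol and were used. A probe set was kept above the 40th percentile of all values (3.51) in at least 3 of 18 arrays, and the one with the highest mean stood for its gene. The filter level is not a measured background.

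All arrays entered 1 limma model (version 3.58.1, R 4.3.3) of 6 group means, with 13 two-sided comparisons. The mean DSS comparison used experiment means. Benjamini-Hochberg adjustment ran over 14003 genes. The script was tested on simulated data. Arrays sharing an experiment number deviated together across genes: the 9 pairs correlated at -0.03 to 0.32 untreated (8 above 0.1) and at 0.11 to 0.31 after DSS. The titles name the number as an experiment, so the blocked fit is given beside results it changes.

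Members and the 12 other gene lists (221 genes, 206 with a probe set) were chosen with earlier results of these data known. Every member is named; other listed genes are named where called, up to 4 each way. Alternatives were quantile normalization again, no filter, a 50th-percentile filter, the compared groups only, the experiment as a block, the mean of probe sets, and leaving out each array or experiment. Promoters came from RefSeq.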

Additional observations from a re-analysis of the deposited data

How the results depend on the processing

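Of the alternative counts of called members, 141 lay within 1.5 times the reported count and 34 did not, and no called difference changed sign. Fitting only the compared groups left 1 called member for CD103+CD11b- against CD103+CD11b+ cells, 1 for CD103+CD11b+ against CD103-CD11b+ cells (both untreated) and 0 for DSS in CD103+CD11b- cells. Leaving out an array gave 1 to 3 and 1 to 2 members in those untreated comparisons, 1 each time in CD103+CD11b- against CD103+CD11b+ cells after DSS, 0 to 2 in CD103+CD11b+ against CD103-CD11b+ cells after DSS, and 0 to 1 for DSS in CD103+CD11b- cells. Leaving out an experiment gave 0 for the mean of subsets. Without the filter the counts were 1 in CD103+CD11b- against CD103+CD11b+ cells after DSS and 0 for the mean of subsets. The stricter filter gave 2 in CD103+CD11b+ against CD103-CD11b+ cells after DSS. Quantile normalization again gave 0 for DSS in CD103+CD11b- cells and 0 for the mean of subsets. The cause of these changes was not tested.

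With the experiment as a replicate block, 1 member was called in CD103+CD11b- against CD103+CD11b+ cells after DSS and 2 in CD103+CD11b+ against CD103-CD11b+ cells after DSS; Fn1 was gained in CD103+CD11b- against CD103-CD11b+ cells in both conditions, and the block changed no other member's call. The blocked fits without an experiment were chosen after seeing the data. The DSS calls rest on few genes: the count over all genes ran from 5 to 18 in CD103+CD11b-, 0 to 20 in CD103+CD11b+ and 3 to 29 in CD103-CD11b+ cells and from 7 to 31 for the mean of subsets. For CD103+CD11b+ against CD103-CD11b+ cells it was 575 untreated, and 150 with only those groups; after DSS it was 221, and 97 without 1 array. In CD103+CD11b- against CD103-CD11b+ cells after DSS it was 1195, and 732 in the blocked fit without experiment 4. With 3 arrays a group and a median SE of 0.17, small differences cannot be seen.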
